A study of Mus musculus with 19 samples.

Results

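The comparison described here sets a neck muscle against a thigh muscle of the mouse. It uses the 8 muscle arrays of a series of 19, 4 labelled sternocleidomastoid and 4 labelled quadriceps femoris. The arrays were taken by that tissue label alone and not by their values. The comparison itself and the gene lists were chosen with earlier results of these data known. All 8 samples are labelled normal skeletal muscle from wild type mice of a mixed C57Bl/6 and 129X1/SvJ strain. No treatment, age, sex, animal number or date is given for them. Total RNA was extracted with a column kit, labelled with biotin and hybridised to Affymetrix arrays. The other 11 arrays hold 7 angiosarcomas of mice with aP2-Cre and a conditional Dicer allele and 4 normal aortas, and served only as a reference for levels. In the study the muscles stand as normal tissue beside the tumors. The labels do not say that the 4 arrays of a muscle came from 4 separate animals, so the p-values measure the spread between these samples. The samples are whole pieces of muscle, in which fewer cells of a type and less RNA per cell cannot be told apart.

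The sternocleidomastoid turns and bends the head, and the quadriceps extends the knee. Vertebrate bodies carry a record of position along the head to tail axis in the Hox genes, transcription factors that lie in 4 clusters and are expressed in an order that follows their order on the chromosome. Limb muscle arises from cells that migrate out of the somites, whereas several neck and head muscles develop partly under other regulators. Adult muscles also differ in their mix of slow oxidative and fast glycolytic fibres, and the mouse neck holds depots of brown fat, a heat-producing tissue marked by the uncoupling protein Ucp1.

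Upstream sequences are shown first for a few genes that carry the main results, as the 250 bases before the RefSeq start site in GRCm38.p6, read 5′ to 3′ on the gene's strand. Of the 24 genes with the largest differences, 16 had an entry in the table of upstream sequences. In all, 5 short motifs were searched on both strands, and none of the matches shown overlaps a match of another of the 5. A match describes letters only. The first pair comes from Hox genes that were lower in the neck muscle. Capitals in Hoxa9 mark an E-box, CANNTG, the motif class bound by myogenic factors such as Myod1, found in 66.2% of all 32851 windows. Capitals in Hoxc4 mark the nuclear receptor motif AGGTCA, here on the opposite strand, found in 14% of windows.
Hoxa9, chr6:52227371-52227620, minus strand: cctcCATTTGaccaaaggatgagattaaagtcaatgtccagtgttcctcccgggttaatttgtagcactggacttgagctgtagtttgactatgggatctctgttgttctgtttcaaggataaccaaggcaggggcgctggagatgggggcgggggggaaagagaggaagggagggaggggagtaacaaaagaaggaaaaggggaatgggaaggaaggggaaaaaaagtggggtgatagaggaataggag
Hoxc4, chr15:103034145-103034394, plus strand: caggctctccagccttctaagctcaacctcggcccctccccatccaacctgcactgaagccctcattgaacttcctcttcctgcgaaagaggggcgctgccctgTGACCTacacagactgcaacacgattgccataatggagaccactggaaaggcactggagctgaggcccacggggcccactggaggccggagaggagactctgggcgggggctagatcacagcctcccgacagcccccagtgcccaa

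The next pair belongs to muscle genes that were higher in the neck muscle. Capitals in Csrp3 mark its 4 E-boxes in the first of the 2 start sites listed, and capitals in Myl3 mark 2 copies of the MCAT motif CATTCC, bound by TEAD factors and present in 12.6% of windows.
Csrp3, chr7:48848052-48848301, minus strand: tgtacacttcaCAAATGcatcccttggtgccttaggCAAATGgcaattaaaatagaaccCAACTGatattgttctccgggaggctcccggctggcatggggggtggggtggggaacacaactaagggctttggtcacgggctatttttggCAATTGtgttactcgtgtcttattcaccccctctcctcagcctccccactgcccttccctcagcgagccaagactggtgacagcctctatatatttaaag
Myl3, chr9:110763428-110763677, plus strand: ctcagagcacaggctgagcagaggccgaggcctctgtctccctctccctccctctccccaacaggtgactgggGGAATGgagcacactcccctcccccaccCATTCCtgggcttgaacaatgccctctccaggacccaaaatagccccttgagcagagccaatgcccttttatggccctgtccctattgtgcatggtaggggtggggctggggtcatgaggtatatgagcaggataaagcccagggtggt

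The last 3 are Ucp1, with its copy of AGGTCA in capitals, and the heat shock genes Hspa1a and Hspa1b, with GAANNTTC, the core of the heat shock element, in capitals. That core was present in 6.69% of windows. The Hspa1a and Hspa1b windows are identical at 247 of 250 bases. The fifth motif, the Hox and Pbx site TGATNNAT, was present in 7.68% of windows and in none of the 7 shown.
Ucp1, chr8:83290098-83290347, plus strand: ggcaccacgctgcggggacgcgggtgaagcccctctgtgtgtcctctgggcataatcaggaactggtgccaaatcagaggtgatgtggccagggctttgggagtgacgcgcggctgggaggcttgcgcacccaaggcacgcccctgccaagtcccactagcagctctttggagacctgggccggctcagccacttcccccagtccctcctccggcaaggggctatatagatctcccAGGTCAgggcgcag
Hspa1a, chr17:34972157-34972406, minus strand: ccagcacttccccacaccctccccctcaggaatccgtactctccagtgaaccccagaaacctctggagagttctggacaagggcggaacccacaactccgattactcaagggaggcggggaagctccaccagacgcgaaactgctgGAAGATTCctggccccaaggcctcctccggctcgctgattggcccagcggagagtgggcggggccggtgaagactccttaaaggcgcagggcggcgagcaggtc
Hspa1b, chr17:34959239-34959488, minus strand: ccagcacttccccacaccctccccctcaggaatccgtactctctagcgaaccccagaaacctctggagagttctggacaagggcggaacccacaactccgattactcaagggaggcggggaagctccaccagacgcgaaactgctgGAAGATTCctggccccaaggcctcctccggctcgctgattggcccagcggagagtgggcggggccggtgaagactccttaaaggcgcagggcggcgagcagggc

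Values are log2 intensities as deposited, with array medians between 5.35 and 5.4 on the 8 muscle arrays. A gene whose mean in a muscle lay under 5.35 is called dim there, since a low array signal cannot be told from background. Replicate arrays correlated at 0.984 to 0.994 within the quadriceps and at 0.983 to 0.992 within the sternocleidomastoid across genes, which are not independent replicates. Fast fibre genes were high in both groups, as the label of skeletal muscle states: the mean level of the list was 12.11 ± 0.15 (SD, n = 4) in quadriceps and 12.14 ± 0.04 (SD, n = 4) in sternocleidomastoid, against 6.77 in aorta. Arrays 1 and 2 of each muscle had Xist between 10.59 and 10.81 and arrays 3 and 4 had it between 5.10 and 5.71, while the Y-linked Eif2s3y, Uty and Kdm5d ran the other way, so sex-linked expression was balanced between the muscles. Array numbers follow the order of deposit. The labels do not say whether a neck and a thigh array came from the same animal, so all fits were unpaired.

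Single arrays stood apart. On sternocleidomastoid array 4 the mean of 16 salivary gland markers was 8.95, against 5.34 to 5.37 on the other 3 and 5.06 to 5.20 in quadriceps. On quadriceps array 4 the mean of 23 general adipocyte genes was 10.06, against 8.08 to 8.60 on the other 3, and the mean of 24 macrophage and monocyte markers was 7.29, against 6.50 to 6.56. The first principal component held 30.7% of the variance and the second 20.7%, and quadriceps array 4 lay nearer to the neck muscle arrays on the first than did its 3 replicates.

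Of 22180 genes, 200 (0.902%) passed an adjusted p of 0.05 in limma with Benjamini-Hochberg adjustment. Of these, 120 (0.541%) were higher in sternocleidomastoid and 80 (0.361%) lower. An unadjusted p under 0.05 was reached by 2630 of the 22180. All 200 had the 4 arrays of one muscle beyond the 4 of the other, a separation that 1686 genes (7.6%) showed. A difference of at least 2-fold and a pass of the test came together in 71 genes, 46 higher and 25 lower. The count depended on single arrays. It was 90 without quadriceps array 1, 74 without array 2 and 376 without array 4. It was 82, 89 and 98 without sternocleidomastoid array 1, 2 and 4. In all 8 fits that left out 1 array, 63 genes (0.284%) passed. Without both arrays numbered 4 the count was 229 (1.03%), and with the sex-linked split as a block it was 281 (1.27%), both chosen after seeing the data.

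**Figure D1:**
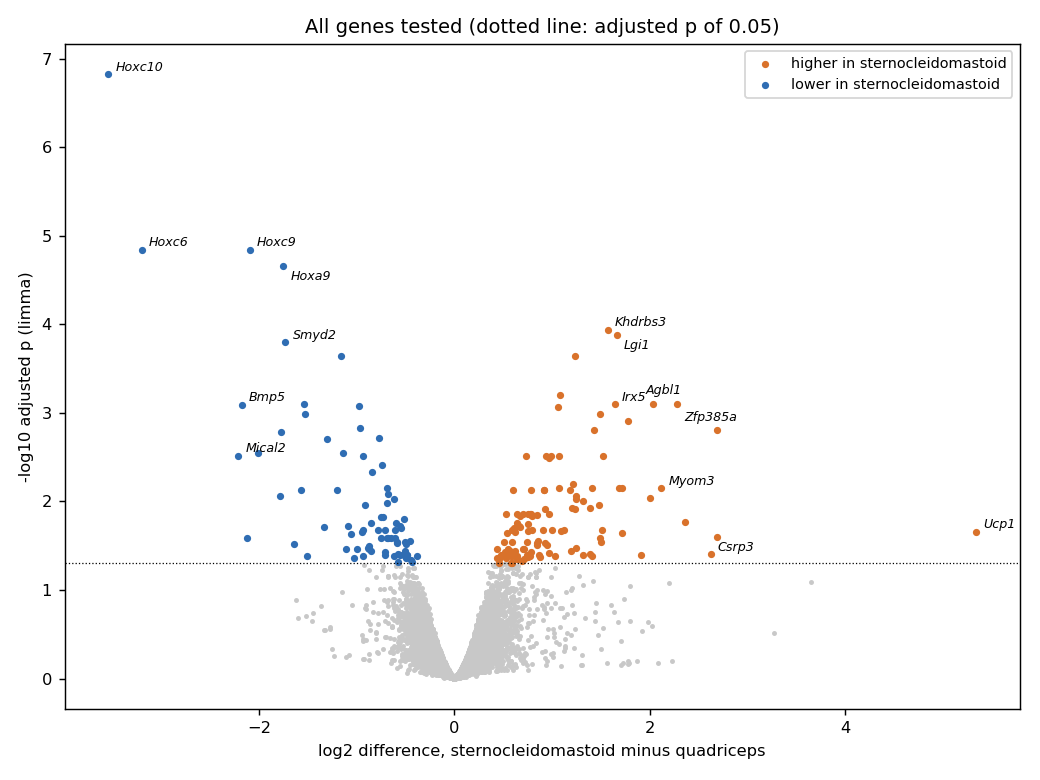
Each point is 1 of 22180 genes, with the log2 difference (sternocleidomastoid minus quadriceps, 4 arrays each) on the x axis and −log10 of limma's adjusted p on the y axis. Colored points passed 0.05, 120 on the right and 80 on the left. Hoxc10 stands highest, at an adjusted p of 1.5e-07, and Ucp1 lies farthest to the right, at 5.34.

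The Hox genes gave the lowest adjusted p-values of the comparison. Of 36 measured, 12 were lower in the neck muscle and 0 were higher, against 0.361% of all genes lower. The count was 8 to 12 when 1 array was left out (8 without quadriceps array 1, without sternocleidomastoid array 2 or without sternocleidomastoid array 4), and 8 without both arrays numbered 4. In the Hoxc cluster 7 of 9 were lower, in the Hoxa cluster 4 of 9, in the Hoxb cluster 1 of 10 and in the Hoxd cluster 0 of 8. Hoxc13, Hoxc12 and all of Hoxd did not pass the test, and neither did any Hoxa or Hoxb gene with a paralogue number of 5 or less. Hoxd1, Hoxd3, Hoxd9, Hoxd11 and Hoxd13 were dim in both muscles, as were Hoxb1, Hoxb7, Hoxb8 and Hoxb13. For these a missing call says little.

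Hoxc10, a posterior Hox gene known from the hindlimb and lumbar region, read 8.54, 8.51, 8.72 and 8.47 in quadriceps and 5.24, 4.98, 5.0 and 4.85 in sternocleidomastoid. The groups lay far apart, with an SD of at most 0.16 within a muscle. The difference was −3.54 (SE 0.10, adjusted p = 1.5e-07 in limma), an 11.7-fold lower level in the neck. Hoxc10 was the only gene that still passed (limma) with only the 2 arrays of each muscle that had high Eif2s3y. It was also low in aorta, at 4.89 ± 0.13 (SD, n = 4), and ran from 4.77 to 6.31 over the 7 tumors.

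Hoxc6, expressed in the embryo from the forelimb and upper thoracic level downward, read 7.67, 7.42, 7.79 and 7.99 in quadriceps and 4.27, 4.40, 4.48 and 4.93 in sternocleidomastoid. It was 9.18-fold lower in the neck (difference −3.20, SE 0.16, adjusted p = 1.45e-05 in limma). Hoxc9, a gene of the thoracic level, read 7.12, 6.73, 6.87 and 6.71 against 4.81, 4.72, 4.67 and 4.87, and was 4.26-fold lower (adjusted p = 1.45e-05, limma). Hoxc8 was lower by a difference of −1.77 (SE 0.18, adjusted p = 0.00164). Hoxc4 read 6.62 to 7.34 in quadriceps and 5.56 to 5.72 in sternocleidomastoid, a difference of −1.30 (SE 0.14, adjusted p = 0.00196). The sternocleidomastoid means of Hoxc6, Hoxc8, Hoxc9 and Hoxc10 were all dim, so their folds may understate the difference. The Hoxc8 call was lost when the spread was taken from all 19 arrays, at an adjusted p of 0.248.

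Hoxc5 (−0.95, SE 0.16, adjusted p = 0.0219) and Hoxc11 (−0.85, SE 0.13, adjusted p = 0.0177) were lower with both muscles dim. Hoxc5 passed without quadriceps array 3 or 4 and without sternocleidomastoid array 1 or 3, and reached an adjusted p of 0.0656 to 0.0844 without each other array. Hoxc11 lost its call without sternocleidomastoid array 1, 2 or 4, at 0.0517 to 0.0605. Between the coding genes, the noncoding Hotair differed by −0.33 (SE 0.11, adjusted p = 0.236), and the microRNA genes Mir196a-2 (−0.18) and Mir615 (−0.21) did not pass. The largest differences therefore fell on Hoxc6 and on Hoxc8 through Hoxc10, with Hoxc12 at −0.18 and Hoxc13 at 0.03.

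In the Hoxa cluster, Hoxa9 read 6.65, 6.51, 6.58 and 6.58 in quadriceps and 4.97, 4.95, 4.76 and 4.63 in sternocleidomastoid. It was 3.37-fold lower in the neck (SE 0.10 on the log2 scale, adjusted p = 2.17e-05 in limma). Hoxa7 read 6.74 to 6.93 against 5.59 to 5.83 and was 2.24-fold lower (adjusted p = 0.000226). Hoxa6 (−0.73, adjusted p = 0.0148) and Hoxa10 (−0.71, adjusted p = 0.0209) were lower by less. Hoxa6 lost its call without quadriceps array 1 or 2 or sternocleidomastoid array 1 (0.0542 to 0.0647). Hoxa10 kept it without quadriceps array 2 or 4 or sternocleidomastoid array 3, and stood at 0.0542 to 0.0822 without each other array. Hoxb6 (−0.64, adjusted p = 0.0261) kept its call without quadriceps array 2 or 4 or sternocleidomastoid array 1, and stood at 0.0546 to 0.0903 otherwise. The neck means of Hoxa9, Hoxa10 and Hoxb6 were dim.

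Anterior Hoxa genes had positive differences that missed the threshold. Hoxa4 read 6.72, 6.82, 6.29 and 7.16 in quadriceps and 7.48, 7.56, 7.33 and 7.62 in sternocleidomastoid (difference 0.75, SE 0.16, adjusted p = 0.0704, limma), and it passed without quadriceps array 4 (0.0142) and without both arrays numbered 4 (0.0369). Hoxa5 differed by 0.63 (SE 0.19, adjusted p = 0.191).

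**Figure D2:**
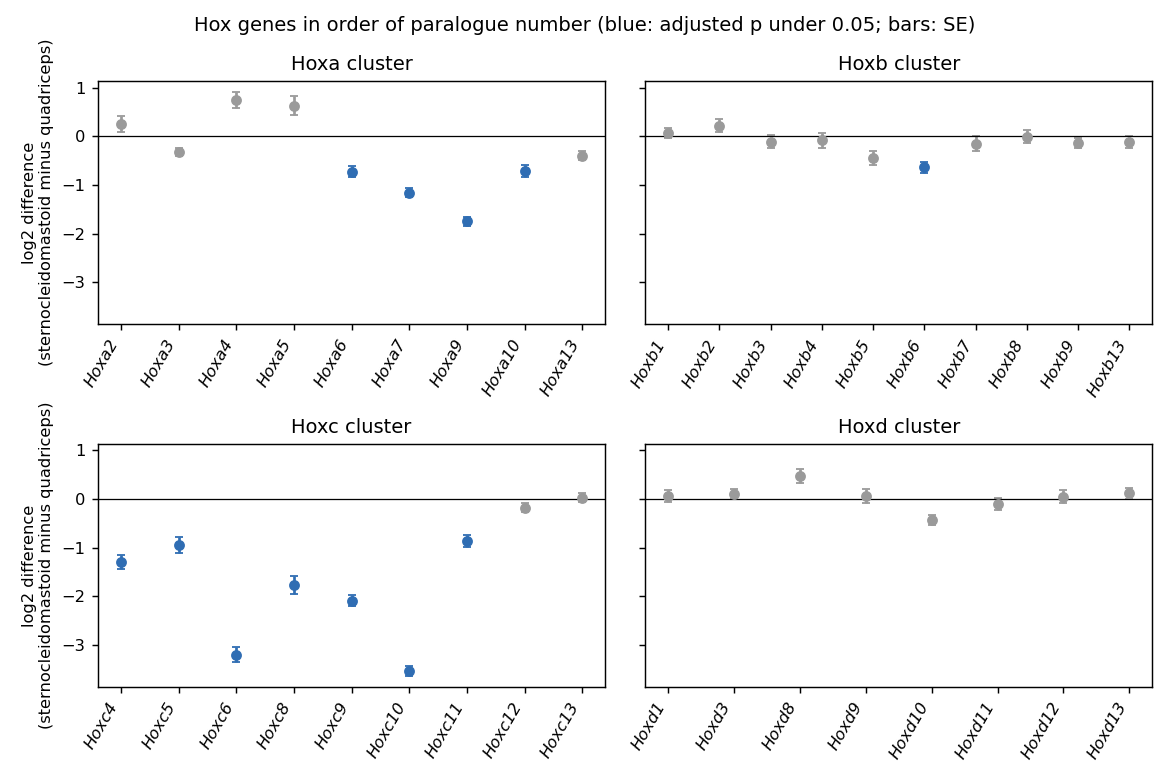
Log2 difference (sternocleidomastoid minus quadriceps) with its SE for the 36 measured Hox genes, in 4 panels by cluster and in order of paralogue number on the x axis. Blue points passed an adjusted p of 0.05. Hoxc4 through Hoxc11 and Hoxa6 through Hoxa10 lie below 0, the lowest at −3.54, and the Hoxd genes lie between −0.43 and 0.47.

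Other regulators of body position went both ways. Of 64 measured T-box, Pitx, Iroquois and related factors, 3 were higher (Irx5, Zic1 and Foxc1) and 3 lower (Six2, Pax3 and Tbx1). The median difference was −0.04, and over all genes 0.541% were higher and 0.361% lower. Irx5, an Iroquois homeobox factor, read 6.19, 6.40, 6.08 and 6.67 in quadriceps and 7.82, 7.86, 7.93 and 8.28 in sternocleidomastoid. The lowest neck array lay above the highest thigh array, and the difference was 1.64 (SE 0.15, adjusted p = 0.000801, limma), a 3.12-fold higher level. The noncoding gene Crnde, the next gene to Irx5 on its chromosome and named after its value was seen, was higher as well (1.18, SE 0.16, adjusted p = 0.00747). Irx3 on the far side differed by 0.71 with a wide spread (SE 0.33, adjusted p = 0.449), and Irx6 by 0.14.

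Zic1, a zinc finger factor of the dorsal somite, nervous system and brown fat, read 5.32 to 5.83 in quadriceps and 6.49 to 7.22 in sternocleidomastoid (1.21, SE 0.17, adjusted p = 0.0119). It lost its call only without quadriceps array 2 (0.0532). Pax3, which marks somitic muscle progenitors bound for the limb, was lower in the neck, where it was dim (−0.75, SE 0.13, adjusted p = 0.0261). Lbx1, needed for the migration of those progenitors, read 7.31 to 7.40 in quadriceps and 6.39 to 7.16 in sternocleidomastoid and missed the threshold (−0.68, SE 0.15, adjusted p = 0.0710). It passed without sternocleidomastoid array 4 (−0.84, adjusted p = 0.00423) and without both arrays numbered 4 (0.00626). Tbx5, a forelimb gene, missed it too (−0.74, adjusted p = 0.0594). Six2 (−1.11, adjusted p = 0.0341) and Tbx1, a gene of the pharyngeal and neck muscles (−0.48, adjusted p = 0.0407), were lower. The limb factors Pitx1 (−0.25, adjusted p = 0.450) and Tbx4 (−0.16, adjusted p = 0.601) did not pass, and neither did Tbx15 (0.20, adjusted p = 0.628). All 3 lower calls were lost without quadriceps array 2 and without sternocleidomastoid array 1, 2 or 4. Pax3 kept its call without quadriceps array 1 or 4 or sternocleidomastoid array 3, Six2 without quadriceps array 3 or 4 or sternocleidomastoid array 3, and Tbx1 only without quadriceps array 4 (0.0408). Without both arrays numbered 4, Pax3 stood at 0.0638. Foxc1 (0.67, adjusted p = 0.0194, dim in quadriceps) passed only without quadriceps array 3 or 4 or sternocleidomastoid array 3 (otherwise 0.0545 to 0.0766).

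The 12 largest decreases among genes that passed in all 8 leave-one-out fits held 5 Hox genes and 7 others. Mical2, which oxidises and disassembles actin filaments, read 9.76, 9.93, 9.34 and 8.97 in quadriceps and 7.76, 7.60, 6.96 and 6.84 in sternocleidomastoid. It was 4.62-fold lower in the neck (difference −2.21, SE 0.25, adjusted p = 0.00306, limma). Bmp5, a secreted growth factor of the bone morphogenetic protein family, read 8.58, 8.35, 8.57 and 7.56 against 6.04, 6.15, 6.09 and 6.09, and was 4.52-fold lower (adjusted p = 0.000816). The neck arrays lay close together, and quadriceps array 4 was the lowest of the thigh arrays.

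Smyd2, a lysine methyltransferase that also acts on muscle proteins, read 10.82, 10.86, 10.56 and 10.68 in quadriceps and 8.87, 8.75, 9.16 and 9.21 in sternocleidomastoid. Its difference was −1.73 (SE 0.12, adjusted p = 0.00016, limma), 3.32-fold lower. Prkag3, the regulatory AMP kinase subunit typical of fast glycolytic muscle, read 10.11 to 10.35 against 8.19, 8.26, 9.18 and 8.95. It was 2.96-fold lower (SE 0.21 on the log2 scale, adjusted p = 0.00743). The difference was −2.0 between the arrays with high Xist and −1.13 between those with high Eif2s3y. Sim2, a basic helix-loop-helix factor known from limb muscle and the midline, was 3.43-fold lower, with quadriceps arrays from 6.30 to 7.69 and neck arrays from 5.18 to 5.43. Its neck mean was dim. Mettl11b, a protein N-terminal methyltransferase (−2.01, SE 0.22, adjusted p = 0.00282, dim in the neck), and Rhbdl1, a rhomboid-like protein (−1.54, SE 0.14, adjusted p = 0.000801), were also lower.

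The 12 largest increases were of mixed function. Zfp385a, a zinc finger protein, read 7.52, 7.30, 6.74 and 7.61 in quadriceps and 9.88, 9.79, 9.38 and 9.22 in sternocleidomastoid. It was 4.85-fold higher in the neck (difference 2.28, SE 0.21, adjusted p = 0.000801, limma), and in aorta it read 6.80 ± 0.18 (SD, n = 4). Agbl1, a metallocarboxypeptidase that trims glutamate chains from proteins, read 7.28 to 7.89 against 9.20 to 9.99, 4.08-fold higher (adjusted p = 0.000801). Smtnl1, a smoothelin-like protein that regulates muscle contraction and responds to exercise, read 8.41, 7.96, 7.43 and 6.98 against 9.94, 9.54, 9.93 and 9.35. It was 3.99-fold higher (adjusted p = 0.00906), and its quadriceps spread was much the wider.

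Khdrbs3, an RNA-binding splicing regulator, had the lowest adjusted p among the increases (1.57, SE 0.10, adjusted p = 0.000116, limma), with quadriceps at 7.07 to 7.41 and sternocleidomastoid at 8.71 to 9.03. Lgi1, a secreted protein of synapses, read 4.45 to 4.71 in quadriceps, where it was dim, and 6.03 to 6.53 in sternocleidomastoid, 3.16-fold higher (adjusted p = 0.000132). Lrrn1, a leucine-rich repeat membrane protein, differed by 1.69 (SE 0.22, adjusted p = 0.0071), and its call was lost with the spread of all 19 arrays (0.216). Dusp18, a dual specificity phosphatase, differed by 1.52 (SE 0.17, adjusted p = 0.00306), and BC048679, which carries only a cDNA name, by 1.49 (SE 0.14, adjusted p = 0.00102). Myom3, Aqp4, Hspa1b and Irx5 complete the 12.

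**Figure D3:**
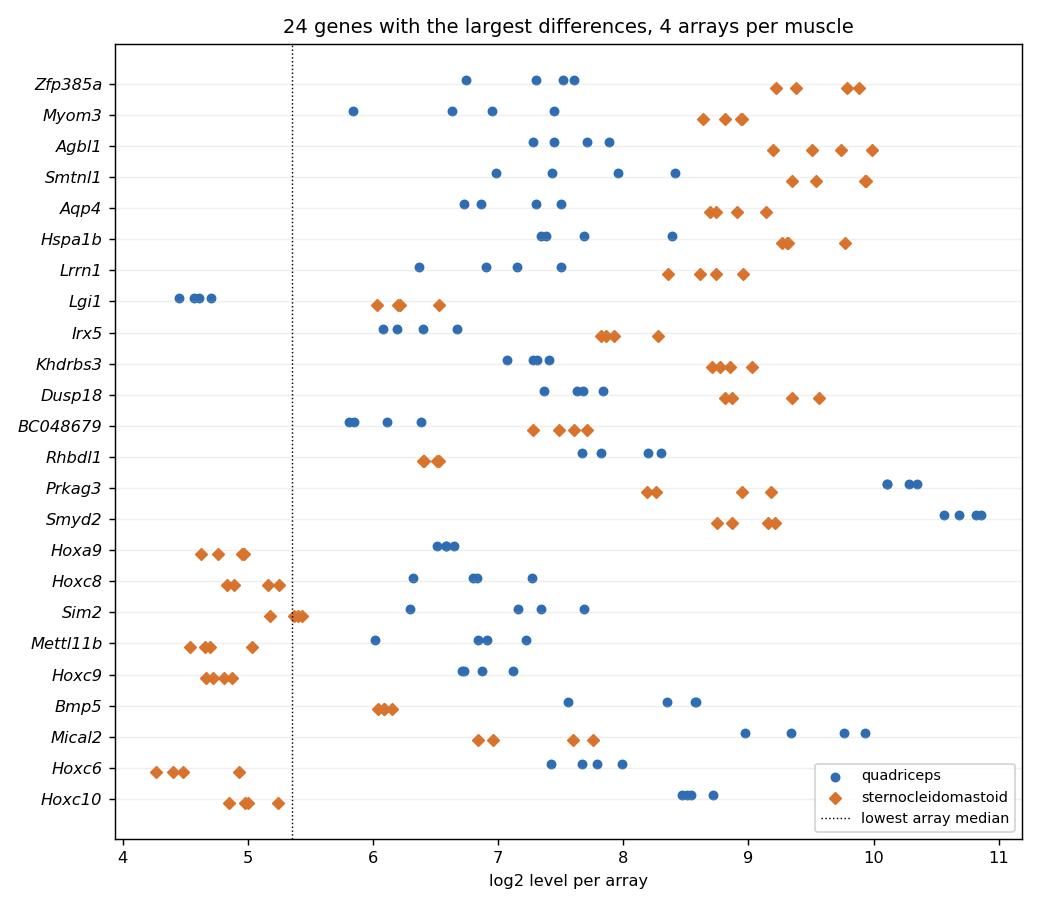
Log2 level on each array for the 24 genes with the largest differences among named genes that passed in the full and all leave-one-out fits, 4 quadriceps arrays (blue circles) and 4 sternocleidomastoid arrays (orange diamonds) per gene. The dotted line marks the lowest array median, 5.35. The choice of the 24 required that the 2 groups do not overlap. The neck values of Hoxa9, Hoxc6, Hoxc8, Hoxc9, Hoxc10 and Mettl11b lie left of the line.

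All 14 slow fibre genes had a positive difference, with a median of 0.85 against −0.004 over all genes, and 3 passed the test as higher, against 0.541% of all genes: Csrp3, Myl3 and Atp2a2. The mean of the list read 7.55, 7.59, 6.88 and 6.51 on the quadriceps arrays and 8.27, 8.38, 8.0 and 7.79 on the neck arrays, with no overlap. Of 16 fast fibre genes 0 passed in limma on all 8 arrays (smallest adjusted p 0.106), and 13 had a negative difference, with a median of −0.12. An unadjusted p under 0.05 was reached by 5 of the 16, against 2630 of 22180 over all genes. The slow count was 1 without any one of sternocleidomastoid arrays 1, 2 or 3, 2 without quadriceps array 1, 2 or 3 or sternocleidomastoid array 4, and 4 without both arrays numbered 4.

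Atp2a2, the calcium pump of slow and heart muscle, read 8.98, 8.87, 8.49 and 8.90 in quadriceps and 9.83, 10.16, 9.63 and 9.89 in sternocleidomastoid, and passed in every leave-one-out fit (1.07, SE 0.14, adjusted p = 0.0071, limma). Csrp3, the muscle LIM protein of the Z-disc, read 9.60, 9.17, 8.28 and 6.87 against 11.29, 11.29, 11.25 and 10.58. It was 6.15-fold higher in the neck (2.62, SE 0.49, adjusted p = 0.0394). The quadriceps values covered a wide range, with array 4 the lowest. Without that array Csrp3 reached an adjusted p of 0.00885. It also passed without quadriceps array 1 and stood at 0.0691 to 0.131 without each of the other 6. Myl3, the slow ventricular light chain, read 5.46 to 6.82 against 7.48 to 8.05 (1.50, SE 0.26, adjusted p = 0.0284). It passed without quadriceps array 2, 3 or 4 and stood at 0.0517 to 0.106 without each other array.

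Slow genes that missed the threshold included Myoz2 (1.98, SE 0.64, adjusted p = 0.232), which ran from 6.57 to 10.18 in quadriceps, and Tnnt1, slow troponin T (0.99, SE 0.21, adjusted p = 0.0704). Tnnt1 passed with the sex-linked block (0.00383), without sternocleidomastoid array 4 (1.16, adjusted p = 0.0427) and without both arrays numbered 4 (0.0342). In quadriceps the tendon marker list, like the slow list, was lower on arrays 3 and 4 than on arrays 1 and 2 (7.70, 7.39, 6.93 and 6.15 on arrays 1 to 4), and its part in the slow fibre result was not tested.

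Of the 10 sarcomeric myosin heavy chains, which set fibre speed, 9 had a positive difference and 0 passed on all 8 arrays (limma). The unadjusted p was under 0.05 in 4 of them, and in 2630 of all 22180 genes. Myh2 and Myh1 passed when quadriceps array 4 was left out. Myh4, the chain of the fastest fibres, read 12.91 to 12.97 in quadriceps and 12.80 to 12.87 in sternocleidomastoid (−0.10, SE 0.07, adjusted p = 0.630). The highest value on the muscle arrays was 13.52, and whether differences narrow near the top of the scale was not tested. Myh2, the chain of fast oxidative fibres, read 10.97, 10.28, 10.10 and 8.35 against 11.76, 11.78, 11.73 and 11.39, so that every neck array lay above every thigh array (1.74, SE 0.44, adjusted p = 0.126). Without quadriceps array 4 it was higher by 1.21 (adjusted p = 0.0171), and without both arrays numbered 4 the adjusted p was 0.0224. Myh1, the intermediate fast chain, read 10.79 to 11.88 against 12.13 to 12.41 (0.82, SE 0.20, adjusted p = 0.106). It stood at 0.61 (adjusted p = 0.0456) without quadriceps array 4, at an adjusted p of 0.0782 without both arrays numbered 4, and at 0.0389 with the sex-linked block. Myh7, the slow chain, read 5.15 to 6.30 against 5.92 to 7.34 and overlapped (0.66, SE 0.32, adjusted p = 0.462). The embryonic Myh3 (0.32) and perinatal Myh8 (0.46), and Myh13 (0.27), Myh15 (0.13), Myh6 (0.05) and Myh7b (0.12), missed the threshold as well.

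Structural genes of the sarcomere moved one at a time. Myom3, an M-band protein of fibres of intermediate speed, read 7.45, 6.95, 6.63 and 5.84 in quadriceps and 8.81, 8.95, 8.94 and 8.64 in sternocleidomastoid, 4.33-fold higher (2.12, SE 0.27, adjusted p = 0.0071, limma). It was the only one of 11 M-band and myosin-binding genes that passed, while 0.902% of all genes did. In the Z-disc and titin list 2 of 27 passed, Csrp3 and Fhl1, a LIM domain protein (1.12, SE 0.18, adjusted p = 0.0209). Fhl1 kept its call without quadriceps array 1 or 4 or sternocleidomastoid array 3, and stood at 0.0517 to 0.0844 without each other array. Of 25 calcium handling genes only Atp2a2 passed, and of 24 dystrophin complex and costamere genes 0 passed in limma (4 at an unadjusted p under 0.05; Itga7 came closest at −0.46, adjusted p = 0.0938).

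**Figure D4:**
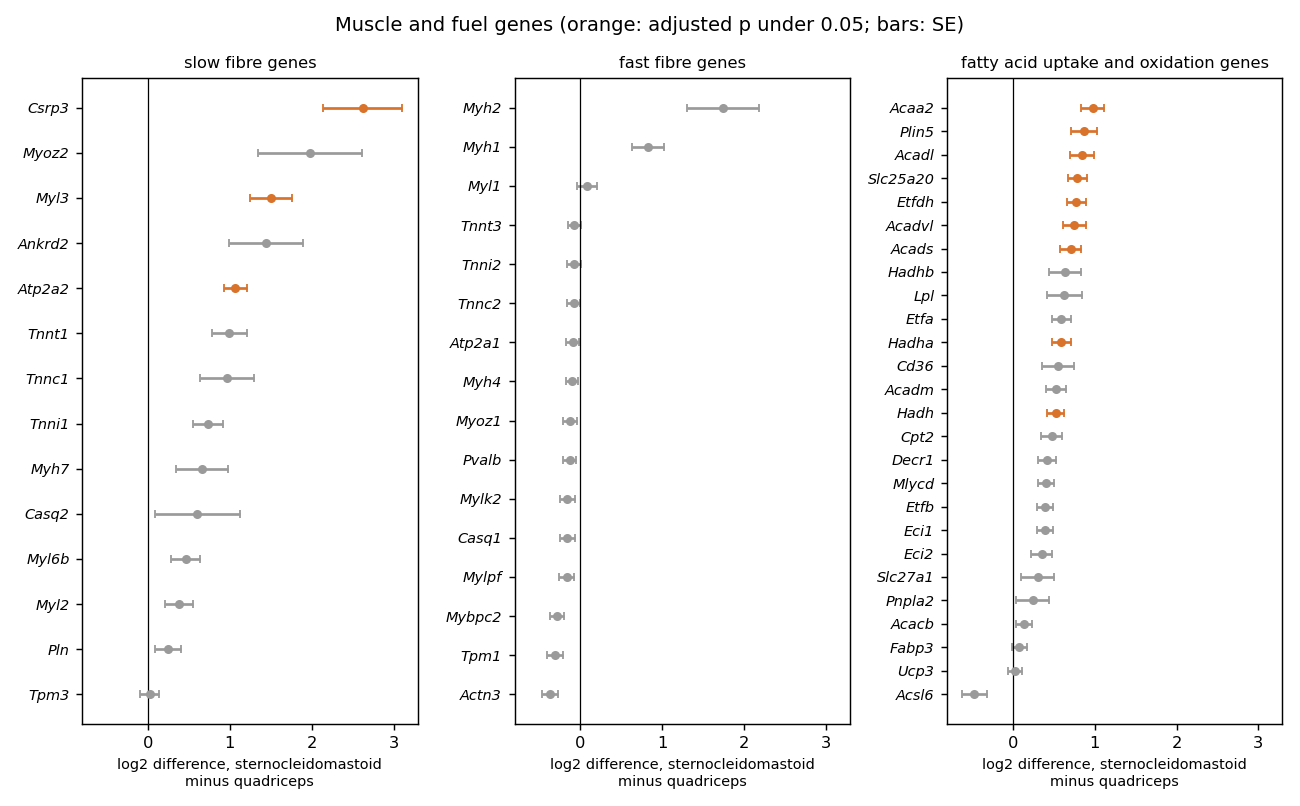
Log2 difference (sternocleidomastoid minus quadriceps) on the x axis, with SE, for each measured gene of the slow fibre (14), fast fibre (16) and fatty acid (26) lists. Orange points passed an adjusted p of 0.05. All slow genes lie right of 0 and most fast genes lie just left of it, with Myh2 (1.74) and Myh1 (0.82) on the right.

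Several genes of fatty acid use were higher in the neck. Of 26 fatty acid uptake and oxidation genes, 9 were higher (0.541% of all genes were), 0 were lower and 25 had a positive difference, with a median of 0.52. The list mean read 9.48, 9.41, 9.39 and 9.57 in quadriceps and 9.99, 10.12, 9.69 and 9.98 in sternocleidomastoid, with no overlap. The 9 were the beta oxidation enzymes Acaa2, Acadl, Acads, Acadvl, Hadh and Hadha, the electron acceptor Etfdh, the carnitine carrier Slc25a20 and the lipid droplet protein Plin5. Acaa2, the last enzyme of the cycle, read 10.94, 10.73, 10.70 and 10.55 against 11.86, 11.91, 11.29 and 11.75 (0.97, SE 0.14, adjusted p = 0.0139). Slc25a20 read 9.11 to 9.21 against 9.63 to 10.20 (0.79, SE 0.12, adjusted p = 0.0139), and Etfdh 9.66 to 9.82 against 10.22 to 10.73 (0.77, SE 0.11, adjusted p = 0.0139). Cd36, which takes up fatty acids, overlapped between the muscles (0.55, adjusted p = 0.285). Acaa2 lost its call without quadriceps array 2 or sternocleidomastoid array 1 or 2 (0.0523 to 0.0549), and Slc25a20 and Etfdh lost theirs without quadriceps array 2 or sternocleidomastoid array 1 (0.0542 to 0.0603). Of the 9, all but Acaa2 and Plin5 were named after their values were seen.

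The number of fatty acid calls changed with most single arrays. It was 3 without quadriceps array 1, 0 without array 2, 3 without array 3 and 7 without array 4. It was 0, 2, 12 and 3 without sternocleidomastoid arrays 1 to 4 in turn, 4 without both arrays numbered 4, and 0 with the spread of all 19 arrays. Sternocleidomastoid array 3 was the lowest neck array for the list mean and also for the brown adipocyte list (6.96, against 7.61 to 7.90 on the other 3). Brown fat burns fatty acids too, and the part of its markers in this result was not tested.

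The respiratory chain and the citric acid cycle showed small differences of one sign. Of 48 oxidative phosphorylation genes 47 were positive with a median of 0.21, and of 24 citric acid cycle and pyruvate genes 22 were positive with a median of 0.27, while 49.0% of all genes were positive. In neither list did any gene pass in limma on all 8 arrays (smallest adjusted p 0.116 and 0.0512). An unadjusted p under 0.05 was reached by 30 and 15, against 2630 of 22180 over all genes. Dld, a subunit of the pyruvate dehydrogenase complex, passed with the sex-linked block (0.56, adjusted p = 0.0332, against 0.0512) and without sternocleidomastoid array 3 (0.012). The mean of the oxidative phosphorylation list ran from 10.11 to 10.26 in quadriceps and from 10.37 to 10.48 in sternocleidomastoid. Regulators of mitochondria gave 3 higher and 1 lower of 21, against 0.541% of all genes higher and 0.361% lower. The coactivators Ppargc1a (0.46, adjusted p = 0.0491) and Ppargc1b (0.48, adjusted p = 0.0403) and the deacetylase Sirt3 (0.52, adjusted p = 0.0414) were higher. Ppargc1a lost its call without any one array (0.0649 to 0.145), and Ppargc1b and Sirt3 kept theirs only without sternocleidomastoid array 3, with 0.0565 to 0.145 over both otherwise. Prkag3 was the lower one.

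Lactate and glycogen genes split. Of 28 glycolysis and glycogen genes 2 were higher and 2 lower, with a median of −0.07, against 0.541% of all genes higher and 0.361% lower. Slc16a1, the monocarboxylate carrier of lactate-consuming fibres, read 8.84 to 9.20 in quadriceps and 9.78 to 10.14 in sternocleidomastoid (0.99, SE 0.11, adjusted p = 0.00306, limma). Slc16a3, the carrier of lactate-exporting glycolytic fibres, read 9.59 to 9.85 against 8.94 to 9.09 (−0.74, SE 0.09, adjusted p = 0.00392). Both passed in every leave-one-out fit, and both lost their calls with the spread of all 19 arrays (0.531 and 0.864). Ldhb, the lactate dehydrogenase subunit of oxidative tissue, was higher (1.03, SE 0.20, adjusted p = 0.0412), and Phka1, the muscle phosphorylase kinase subunit, lower (−0.51, SE 0.08, adjusted p = 0.0157). Ldhb kept its call only without quadriceps array 1 or 4 (otherwise 0.0657 to 0.135). Phka1 kept it only without quadriceps array 4 or sternocleidomastoid array 2 or 3 (otherwise 0.0501 to 0.0683).

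Brown fat genes gave the largest single difference. Ucp1, the uncoupling protein that defines brown adipocytes, read 4.68, 4.89, 4.89 and 9.07 in quadriceps and 11.54, 11.64, 9.99 and 11.73 in sternocleidomastoid. Quadriceps array 4 stood far above its replicates and still below every neck array. The difference was 5.34 (SE 0.88, adjusted p = 0.0219, limma), a 40.5-fold ratio of the means on the array scale. Without quadriceps array 4 the difference was 6.40, an 84.5-fold ratio (adjusted p = 6.07e-05). The other 3 quadriceps arrays were dim, so these folds may understate the difference. Without sternocleidomastoid array 3 the adjusted p was 0.0247, and without each of the other 6 it was 0.0695 to 0.0887. The difference was 6.80 between arrays with high Xist and 3.88 between those with high Eif2s3y. The normal aorta samples read higher still, at 12.77 ± 0.08 (SD, n = 4), and the 7 tumors ran from 4.39 to 11.08.

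The brown adipocyte list followed Ucp1. Of 17 genes 4 were higher, against 0.541% of all genes (Ucp1, Elovl3, Pank1 and Zic1) and 16 were positive, with a median of 1.07. The list mean read 5.99, 5.92, 5.98 and 6.80 in quadriceps and 7.61, 7.87, 6.96 and 7.90 in sternocleidomastoid. Elovl3, a fatty acid elongase of brown fat, read 4.04 to 4.36 in quadriceps, where it was dim, and 5.28 to 7.49 in the neck (2.36, SE 0.36, adjusted p = 0.0172). It passed without quadriceps array 4 or sternocleidomastoid array 3 or 4, and stood at 0.056 to 0.0709 without each other array. Pank1, a coenzyme A synthesis enzyme, was 2.85-fold higher (adjusted p = 0.0209), and it passed without quadriceps array 4 or sternocleidomastoid array 2 or 3 and stood at 0.0501 to 0.0799 otherwise. Cidea, a lipid droplet protein of brown fat, read 5.52, 5.64, 5.16 and 9.28 against 10.28, 10.43, 8.83 and 10.68, so quadriceps array 4 reached into the neck range (3.65, SE 0.81, adjusted p = 0.0822). Without that array Cidea passed (4.61, adjusted p = 0.000568), as it did without both arrays numbered 4 (0.00111). The number of brown adipocyte calls was 1, 0, 1 and 8 without quadriceps arrays 1 to 4 in turn. It was 1, 2, 10 and 2 without sternocleidomastoid arrays 1 to 4, and 5 without both arrays numbered 4.

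General adipocyte genes depended on quadriceps array 4. Of 23, 0 passed in limma on all 8 arrays (smallest adjusted p 0.0961, 8 at an unadjusted p under 0.05), and the list mean read 8.31, 8.60, 8.08 and 10.06 in quadriceps and 9.35, 9.48, 8.47 and 9.32 in sternocleidomastoid. Adipoq, the adipocyte hormone adiponectin, read 7.42, 7.69, 7.24 and 9.61 against 8.32, 8.45, 7.93 and 8.50 (0.31, SE 0.44, adjusted p = 0.836). The array with the most adipocyte signal was a quadriceps array. Without it 6 of the 23 were higher in the neck, Adipoq (0.85, adjusted p = 0.0329), Dgat2, Fabp4, Pck1, Pparg and Thrsp, and Nnat was lower. Of these, Dgat2 (1.38, adjusted p = 0.0172) and Nnat passed without both arrays numbered 4. With both arrays numbered 4 left out the median of the list was 0.84, against 0.45 with all 8.

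**Figure D5:**
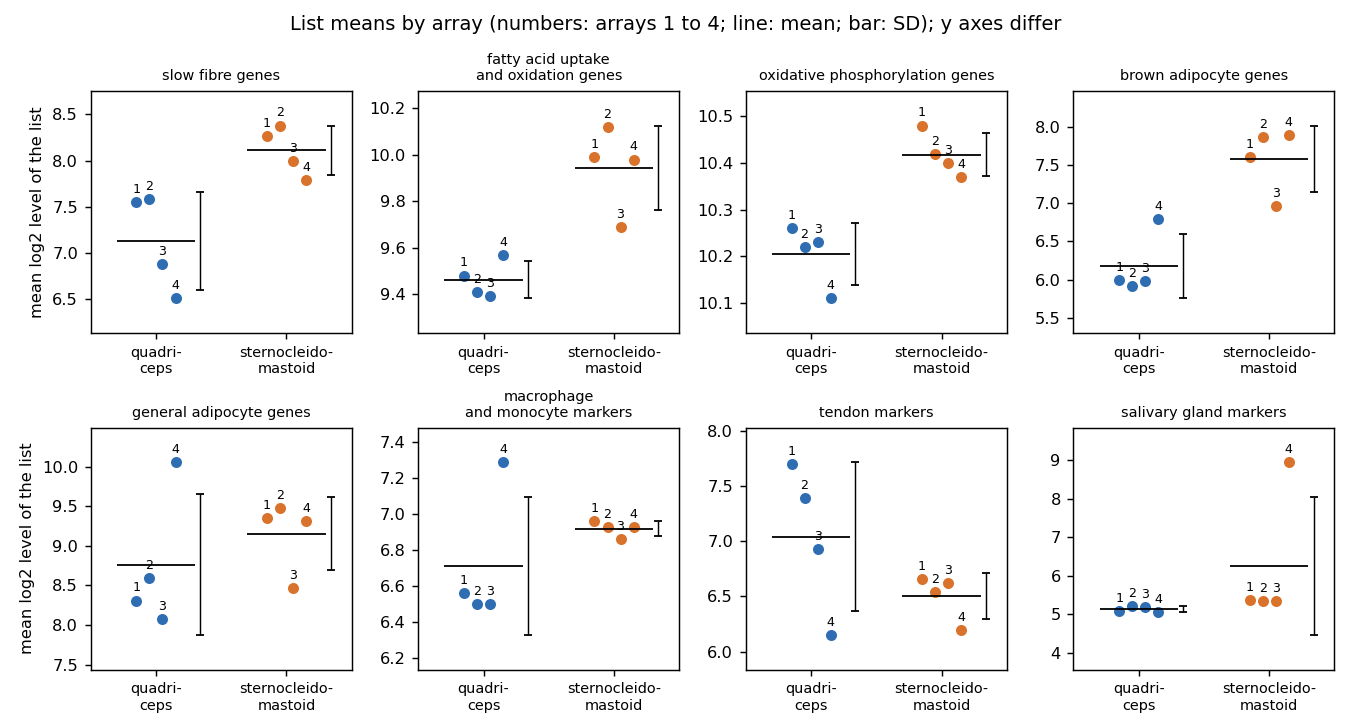
Mean log2 level of 8 gene lists on each array (points, numbered 1 to 4 by muscle), with the mean (line) and SD (bar, n = 4) of each muscle and a y axis of its own in every panel. The slow fibre, fatty acid, oxidative phosphorylation and brown adipocyte means do not overlap between muscles. Quadriceps array 4 is highest for general adipocyte genes (10.06) and macrophage markers (7.29), and sternocleidomastoid array 4 for salivary gland markers (8.95).

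Some membrane channels and pumps were higher in the neck. Of 19 muscle membrane channels and transporters, 4 were higher and 0 lower, against 0.541% of all genes higher and 0.361% lower. Aqp4, the water channel of fast fibres, read 7.30, 7.50, 6.86 and 6.73 in quadriceps and 8.91, 9.14, 8.74 and 8.69 in sternocleidomastoid, 3.43-fold higher (1.78, SE 0.17, adjusted p = 0.00122, limma). Kcnq5, a voltage-gated potassium channel, was 2.38-fold higher (adjusted p = 0.00938), by 0.80 between the arrays with high Xist and by 1.70 between those with high Eif2s3y. A second Kcnq5 probe set differed by 0.60 and did not pass (adjusted p = 0.200). Atp1b1, a sodium pump subunit (1.09, adjusted p = 0.0218), and Kcnj2, an inward rectifier (0.65, adjusted p = 0.0189), each passed in 4 of the 8 leave-one-out fits. Atp1b1 stood at 0.0529 to 0.0882 without quadriceps array 2 or sternocleidomastoid array 1, 2 or 4. Kcnj2 stood at 0.0547 to 0.0667 without quadriceps array 1 or 2 or sternocleidomastoid array 1 or 2. Of 21 genes of the neuromuscular junction, 1 was higher, the agrin receptor Lrp4 (0.62, adjusted p = 0.0359), and it passed only without quadriceps array 4 or sternocleidomastoid array 1 (otherwise 0.0635 to 0.109).

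Regulators of muscle growth and fibre type gave calls in both directions. Of 30 myogenic and myostatin axis genes 1 was higher (Tead4) and 4 were lower (Igfbp5, Acvr1b, Fst and Pax3). The shares over all genes were 0.541% higher and 0.361% lower. Igfbp5, an IGF-binding protein of differentiating muscle, read 10.82, 10.95, 11.36 and 11.33 in quadriceps and 10.28, 10.25, 10.13 and 10.13 in sternocleidomastoid (−0.92, SE 0.13, adjusted p = 0.0111, limma), and its call was lost with the spread of all 19 arrays (0.421). Acvr1b, an activin and myostatin receptor (−1.0, adjusted p = 0.0340), passed only without quadriceps array 4 (otherwise 0.0632 to 0.111). Fst, the myostatin antagonist follistatin (−0.60, adjusted p = 0.0261), passed only without quadriceps array 4 or sternocleidomastoid array 3 (otherwise 0.0543 to 0.0995). Tead4 (0.86, adjusted p = 0.0283) passed without quadriceps array 4 or sternocleidomastoid array 1 or 2 (otherwise 0.0535 to 0.101). Myostatin itself, Mstn, read 10.07 to 10.54 against 9.72 to 10.87 (0.01, SE 0.24, adjusted p = 0.991). Myod1 (0.12), Myf5 (0.16), Myf6 (−0.16), Myog (−0.16) and Pax7 (−0.15) did not pass.

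Maf, a large Maf factor tied to the fastest fibres, was lower in the neck. It read 9.71, 9.78, 9.80 and 9.67 in quadriceps and 8.76, 8.95, 8.70 and 8.66 in sternocleidomastoid, 1.96-fold lower (−0.97, SE 0.09, adjusted p = 0.000843, limma). A second Maf probe set differed by −1.04 (adjusted p = 0.00295). Of 27 fibre type regulators, Maf was the only one lower, and Ppargc1a the only one higher, against 0.361% and 0.541% of all genes.

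Heat shock genes showed 1 strong pair. Hspa1b, an inducible Hsp70, read 7.69, 7.34, 7.38 and 8.39 in quadriceps and 9.32, 9.27, 9.31 and 9.77 in sternocleidomastoid, 3.28-fold higher (1.72, SE 0.22, adjusted p = 0.0071, limma). Hspa1a, its neighbour and near copy, read 7.19 to 7.96 against 8.49 to 9.17 (1.24, SE 0.18, adjusted p = 0.0121), and it stood at 0.0509 without sternocleidomastoid array 1. Array signals of such close copies may not be separable, so the 2 count as uncertain single genes. Of 17 heat shock genes no other passed, although 15 had a positive difference. The share of all genes that passed as higher was 0.541%. Of 24 immediate early genes 1 was higher, the stress factor Atf3 (0.75, SE 0.11, adjusted p = 0.0139), which stood at 0.0509 without sternocleidomastoid array 1.

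In several stress, clock and growth lists no gene passed in limma on all 8 arrays. The number at an unadjusted p under 0.05 was 5 of 28 atrophy and stress hormone response genes, 3 of 18 circadian clock genes, 1 of 20 interferon response genes, 4 of 24 mitosis genes and 2 of 19 imprinted growth genes. It was 0 of 29 ribosomal protein genes and 0 of 16 housekeeping genes, whose medians were −0.04 and −0.06. Over all genes it was 2630 of 22180. The mean of the mitosis list was dim, at 5.08 in quadriceps and 5.09 in sternocleidomastoid. The largest differences in these lists included Ddit4, a stress-induced inhibitor of growth signalling (−0.83, adjusted p = 0.138, and 0.04 without quadriceps array 1), and Nnat, an imprinted gene, which read 9.50 on quadriceps array 4 and 6.94 to 7.41 on its replicates (−1.52, adjusted p = 0.196). Nnat is also on the general adipocyte list. It passed as lower without quadriceps array 4 (−0.95, adjusted p = 0.00885) and without both arrays numbered 4 (0.0154). The cell cycle inhibitor Cdkn1a passed with the sex-linked block alone (0.70, adjusted p = 0.0192, against 0.609), and the mitotic kinase Aurka only without sternocleidomastoid array 3 (0.0498). Of 17 microRNA genes of muscle and the Hox clusters none passed (limma, smallest adjusted p 0.308, 1 at an unadjusted p under 0.05), and the list mean ran from 3.60 to 4.02 over the 8 arrays, which is dim.

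Of the matrix genes, 2 were lower in the neck. Lox, which cross-links collagen and elastin, read 6.81 to 7.28 in quadriceps and 5.53 to 6.30 in sternocleidomastoid (−1.09, SE 0.17, adjusted p = 0.0189, limma), and it lost its call without quadriceps array 1 or 2 or sternocleidomastoid array 4 (0.0577 to 0.0758). Tnc, tenascin C of tendon junctions, was lower (−1.03, adjusted p = 0.0437) and kept its call only without quadriceps array 4 (0.0151, otherwise 0.0713 to 0.131). They were 2 of 29 elastic and matricellular genes, whose median was 0.11, while 0.361% of all genes were lower. Of 32 collagen chain genes 0 passed (limma, 5 at an unadjusted p under 0.05), nor did any of 24 fibroblast markers (4 at an unadjusted p under 0.05) or 21 cartilage and bone markers (2 at an unadjusted p under 0.05). That unadjusted level was reached by 2630 of 22180 genes. The mean of the cartilage and bone list was dim, at 5.33 in quadriceps and 5.26 in sternocleidomastoid. With the sex-linked block 2 collagen genes passed, Col14a1, which is also on the fibroblast list (0.83, adjusted p = 0.0237, against 0.112), and Col6a6 (−0.48, adjusted p = 0.0343). Col6a6 also passed without sternocleidomastoid array 3 and Col22a1 without quadriceps array 4. Of 17 tendon markers 15 had a negative difference and 0 passed (limma, 8 at an unadjusted p under 0.05), with a median of −0.55. Without quadriceps array 4, 6 of the 17 passed as lower (Angptl7, Cilp2, Col22a1, Comp, Cpxm2 and Fmod), and 3 of these (Angptl7, Comp and Fmod) without both arrays numbered 4. Tnmd, the tendon gene tenomodulin, read 8.41, 7.49, 6.63 and 5.88 in quadriceps and 6.24, 5.69, 6.09 and 5.06 in sternocleidomastoid (−1.33, SE 0.47, adjusted p = 0.286). Its thigh arrays covered a wider range than the difference between the muscles.

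Markers of other cells in the tissue gave few calls, though the platelet list mean did not overlap between the muscles. No gene passed in limma on all 8 arrays in 12 such lists. The number at an unadjusted p under 0.05 is given for each, and over all genes it was 2630 of 22180. The lists gave 3 of 28 endothelial, 2 of 9 lymphatic, 0 of 10 pericyte, 1 of 22 Schwann cell and 2 of 15 satellite cell markers. They also gave 3 of 10 mast cell, 0 of 16 neutrophil, 1 of 18 T cell, 1 of 12 B cell and 3 of 9 thymocyte markers. The last were 1 of 3 erythroid genes and 0 of 13 MHC class II and antigen presentation genes. The list means of the neutrophil, T cell, B cell and thymocyte markers were dim in both muscles, at 4.68 to 5.33. That of the mast cell markers was dim in quadriceps, at 5.16. A missing call says little in such lists. All 10 mast cell markers had a positive difference, with a median of 0.21. The mast cell proteases Cpa3 (1.06, adjusted p = 0.00265) and Tpsb2 (0.70, adjusted p = 0.0199) passed without quadriceps array 4, both passed without both arrays numbered 4, and Cpa3 passed with the sex-linked block (0.047). The lymphatic receptor Lyve1 was higher without quadriceps array 4 (0.0119) and without both arrays numbered 4, and the glial protein S100b without sternocleidomastoid array 3 (0.0189) and with the block (0.036). Lyve1 is also on the macrophage list, and S100b is also on the brown adipocyte list. The median of the Schwann cell list was 0.03. The thymocyte factor Satb1 passed as lower only without quadriceps array 4, and Car2 of the erythroid list passed as higher only without sternocleidomastoid array 3. The macrophage list mean read 6.86 to 6.96 on the neck arrays, 6.50 to 6.56 on quadriceps arrays 1 to 3 and 7.29 on quadriceps array 4. Of its 24 markers 18 had a positive difference, with a median of 0.14, and of 0.34 without both arrays numbered 4. Only Lyz1, a lysozyme, was higher (1.20, adjusted p = 0.0362, limma), while 0.541% of all genes were. Lyz1 kept its call only without quadriceps array 4 (0.00347, otherwise 0.0545 to 0.127). Among 16 smooth muscle genes, Lmod1, an actin nucleator of smooth muscle, was higher on all neck arrays (1.21, SE 0.15, adjusted p = 0.00639, and 0.111 with the spread of all 19 arrays). All 8 platelet genes had a positive difference, with a median of 0.3. Their mean read 5.51, 5.55, 5.80 and 5.85 in quadriceps and 6.06, 6.55, 6.02 and 6.54 in sternocleidomastoid. Only Ppbp, a chemokine, passed (2.69, SE 0.45, adjusted p = 0.0254, limma), at 5.46, 5.58, 6.23 and 6.76 in quadriceps and 8.13, 9.63, 7.58 and 9.42 in sternocleidomastoid. It passed only without quadriceps array 4 or sternocleidomastoid array 3 (otherwise 0.0545 to 0.0938). Among 16 heart muscle markers, Sbk2, a kinase, was higher (1.40, adjusted p = 0.0412), and passed only without quadriceps array 4 (otherwise 0.0766 to 0.122).

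Salivary gland genes stood out most on 1 neck array. Of 16 markers 15 had a positive difference with a median of 1.33, and none passed (limma, smallest adjusted p 0.225, 5 at an unadjusted p under 0.05). In 4 of the 16 the arrays of the muscles did not overlap, as in 7.6% of all genes. Among them, Dcpp2 read 5.15 to 5.34 on neck arrays 1 to 3 and 3.70 to 4.65 in quadriceps, all under 5.35. Without both arrays numbered 4 the median was 0.01, and Bpifa2 and the amylase Amy1 (1.33, adjusted p = 0.00746) passed. Amy1 read 8.54, 8.84 and 8.25 on neck arrays 1 to 3 and 7.02 to 8.31 in quadriceps. In aorta, where the salivary list mean was 5.01, Amy1 read 8.95 ± 0.17 (SD, n = 4). The saliva proteins Pip, Klk1 and Dcpp1, named after their values were seen, read 11.51, 11.09 and 11.79 on sternocleidomastoid array 4 and 3.0 to 5.43 on the other 7. Bpifa2, the parotid secretory protein, read 13.10 there, 6.85, 6.98 and 6.94 on the other neck arrays and 4.79 to 5.50 in quadriceps, so it was higher on all 4 neck arrays. Bpifa2 differed by 3.27 (adjusted p = 0.307) on all 8 arrays, by 1.73 (adjusted p = 0.00202) without sternocleidomastoid array 4 and by 1.59 (adjusted p = 0.000473) without both arrays numbered 4. None of 10 thyroid and parathyroid markers (1 at an unadjusted p under 0.05) and none of 15 skin markers (2 at an unadjusted p under 0.05) passed in limma. The thyroid and parathyroid list mean was dim, at 4.99 in quadriceps and 4.89 in sternocleidomastoid. The skin list mean was 5.33 and 5.35.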

How the data were processed

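The authors deposited 1 log2 value per probe set and array for 19 Affymetrix arrays. Partek 6.6 is named in the submitters' processing notes without a role, and how the values were normalized and summarized is not given in the sources used here. Of 41345 probe sets, 23521 had 1 gene symbol, 1814 several and 16010 none in the platform annotation. For each of 22180 genes the brightest such probe set, averaged across all 19 arrays, was used (1082 genes had more than 1).

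The 8 muscle arrays were fitted in limma 3.58.1 (R 4.3.3; lmFit and eBayes, two-sided, no covariate), with Benjamini-Hochberg adjustment over all 22180 genes and a threshold of 0.05. The script was tested on simulated data. Arrays were used as deposited, and the number of arrays, 4 a group, limits the precision. Named genes are the 12 largest differences each way among genes called in the full fit and in all 8 leave-one-out fits whose arrays did not overlap between the muscles, without Riken, Gm and other unnamed loci. Up to 4 such members of each list are named as well, or where there were none up to 2 called members, or the 2 largest differences as values, and the Hox and myosin heavy chain genes and a listed set of regulators and markers as values. Other names were chosen after their values were seen. The comparison and the 55 gene lists were chosen with earlier results of these data known.

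Alternatives were array centring (median gene or housekeeping list), quantile normalization, averaging probe sets, a filter on dim genes, limma's trend and robust options, 1 variance per group, all 19 arrays, each array left out, an adjusted p of 0.01 and a 2-fold minimum. Chosen after seeing the data were leaving out both arrays numbered 4, a block for sex-linked genes, and the arrays of each Xist level alone. Lists were described by counts and medians, with no set test. Upstream sequences came from RefSeq (GRCm38.p6).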

Additional observations from a re-analysis of the deposited data

Results flagged for a closer look

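Over 155 genes and list means, 310 groups of 4 arrays were checked for 1 array far from its replicates, and 26 had one. Chance gives about 1 in 20, and some of these genes were named because array 4 changed their call. On sternocleidomastoid array 4, Bpifa2 read 13.10 (other arrays 6.85 to 6.98), Dcpp1 11.79 (5.02 to 5.43), Pip 11.51 (3.81 to 4.36) and Klk1 11.09 (3.0 to 4.06), and the salivary gland list mean was 8.95 (5.34 to 5.37). On the same array Hspa1b was highest at 9.77 (9.27 to 9.32), Csrp3 lowest at 10.58 (11.25 to 11.29), Myh2 lowest at 11.39 (11.73 to 11.78) and Fmod lowest at 6.89 (7.64 to 7.66).

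On quadriceps array 4, Ucp1 read 9.07 (4.68 to 4.89), Cidea 9.28 (5.16 to 5.64), the brown adipocyte list mean 6.80 (5.92 to 5.99) and the macrophage list mean 7.29 (6.50 to 6.56), each the highest of its group. So were the adipocyte genes Dgat2 at 11.02 (9.04 to 9.26), Fabp4 at 12.47 (11.35 to 11.44), Pck1 at 10.81 (7.26 to 7.79) and Pparg at 9.49 (7.31 to 7.63), and the mast cell gene Tpsb2 at 6.99 (6.27 to 6.32). Comp at 5.64 (6.49 to 6.6) and Dld at 9.74 (9.78 on each other array) were lowest there. On sternocleidomastoid array 3, Ucp1 was lowest at 9.99 (11.54 to 11.73), Acadvl lowest at 9.29 (9.86 to 9.93), the general adipocyte list mean lowest at 8.47 (9.32 to 9.48), and Pck1 was lowest at 8.50 (10.06 to 10.33), while Six2 was highest at 7.02 (6.50 to 6.56). Foxc1 was highest on quadriceps array 3, at 5.59 (5.25 to 5.26).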

How the results depend on the processing

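The main count was 200 genes, 120 higher and 80 lower in sternocleidomastoid. With 1 array left out it ran from 74 to 376 genes, from 40 to 248 higher and from 34 to 128 lower. With the trend and robust options it was 301 (181 higher). With all 19 arrays, whose spread includes tumors, it was 96 (52 higher, 44 lower). An adjusted p of 0.01 left 58 (32 higher, 26 lower) and a 2-fold minimum 71 (46 higher, 25 lower). The 2 arrays per muscle with high Xist alone gave 425 (290 higher, 135 lower), and those with high Eif2s3y alone gave 1 (0 higher, 1 lower), each on 4 arrays. Centring, averaging probe sets, quantile normalization and 1 variance per group kept the count between 188 and 208. The sex-linked block gave 281, and leaving out both arrays numbered 4 gave 229. A filter on dim genes gave 287, but of only 11090 genes tested. No named gene that passed changed its direction in any of these fits. Of 78 such genes, 77 lost their call on the arrays with high Eif2s3y alone, 39 with all 19 arrays, 23 without both arrays numbered 4, and 7 to 38 without 1 array. The cause was not tested. No paired analysis was run, because the labels do not say which arrays, if any, came from the same animal. A pairing of the muscles by animal therefore stays unknown. Dim genes limit the comparison: for them a fold may be understated.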
